A study of Mus musculus with 24 samples.

Results

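Promoter intervals of long noncoding RNAs (lncRNAs) were examined in mouse embryonic stem cells (ES cells) by ATAC-seq, which reads out where the transposase Tn5 can cut DNA, so that a high count marks accessible chromatin. An interval was a member if it lay on chromosomes 1 to 19, if the authors' annotation placed it at a promoter-TSS (TSS, transcription start site) and if its nearest gene was of type lincRNA, antisense or processed_transcript. The rule used no measured value. It gave 2775 of all 145143 consensus intervals, and 2775 of the 17294 promoter-TSS intervals on these chromosomes. They belonged to 2504 genes, of which 235 had 2 or more intervals and none had more than 4. Intervals of 1 gene are not independent of each other.

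The study induced the X-linked lncRNA Firre from a doxycycline-responsive transgene. Its 4 ES cell lines were a control on the wild type background, a Firre-inducible line on that background (OE in the labels), a control with a Firre knockout, and a Firre-inducible line with the knockout (Rescue in the labels). Cells grew on gelatin with LIF and the inhibitors PD0325901 and CHIR99021, and all 4 lines, controls included, were given doxycycline. Each line had 1 library at 0, 30, 60, 90, 120 and 150 min. Of these 24 libraries 23 were used; that of the wild type Firre line at 60 min is not analysed here. The sources used here give neither the driver of the transgene nor the number of clones per line, so genotype and clone cannot be told apart. The 6 times of a line served as its replicates, and p-values measure the spread between them.

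A lncRNA promoter is, like that of a protein-coding gene, a nucleosome-depleted stretch where RNA polymerase II begins transcription. Many lncRNAs start close to a protein-coding gene on the opposite strand and share its open chromatin, while intergenic lncRNAs (lincRNAs) often start at weaker sites. Some lncRNA genes are hosts whose transcripts carry small nucleolar RNAs (snoRNAs), which guide the modification of ribosomal RNA, or microRNAs.

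The annotation gives a nearest gene and, in its promoter entry, the gene whose promoter the interval is. Both named the same gene in 1561 members (56.25%), called own-label members below. In 1125 (40.54%) the promoter entry named a protein-coding gene, and in 89 it named another kind of gene or none. Of those with a protein-coding label, 510 had the lncRNA start within 1000 bp and 615 had it farther off, at a median of 11080 bp. Among 11012 protein-coding promoter intervals, 84.56% carried their own label. The 2 entries thus disagree for a large part of the members, and results are given by label. By type, 1287 were antisense, 1181 lincRNA and 307 processed_transcript. Most symbols were a Gm number (1893) or a Rik number (650).

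Libraries held 5725518 to 14977148 counts in peaks, the highest at 90 min in the wild type Firre line, and no pair within a line agreed within sampling noise. The knockout control at 30 and 90 min lay farthest out on the first principal component, and counts of calls are given without them too. The 20 intervals nearest to Firre, which check the labels, summed to 82.9 to 101 CPM (counts scaled to library size) in the wild type control, 117 to 141 in the wild type Firre line, 6.67 to 14.4 in the knockout control and 18.4 to 28.9 in the knockout Firre line, with no overlap. Of 8 ES cell markers 5 had a promoter interval (Sox2, Nanog, Esrrb, Tfcp2l1 and Tdgf1; none for Pou5f1, Zfp42 and Klf4). Their sum was 209 to 222 CPM in the wild type control and 217 to 268 CPM in the knockout control. Intervals of 5 of 8 fibroblast markers summed to 53.4 to 61.4 and 54.2 to 64.9 CPM, and those of 3 of 5 endoderm markers to 63.5 to 70.2 and 64.8 to 76.1 CPM. Their part in the results was not tested.

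Sequences of 5 called member promoters are shown as examples. Of these, 3 are snoRNA hosts with strong, CpG-dense promoters that were higher in the knockout control. The other 2 are weak lincRNA promoters that were higher in the knockout Firre line. Hosts that were not called are not shown, and the 5 do not stand for the members as a whole. The windows are from RefSeq (GRCm38.p6), 5′ to 3′ on the strand of the gene, from 250 bases before to 50 after the start. Capitals mark each CG dinucleotide (CpG). The positions are chr9:88522848-88523147 (minus strand) for Snhg5, chr3:123508287-123508586 (minus strand) for Snhg8, chr5:74092810-74093109 (plus strand) for Dancr, chr17:45146993-45147292 (plus strand) for Gm35097 and chr5:119199969-119200268 (minus strand) for Gm7538.
Snhg5: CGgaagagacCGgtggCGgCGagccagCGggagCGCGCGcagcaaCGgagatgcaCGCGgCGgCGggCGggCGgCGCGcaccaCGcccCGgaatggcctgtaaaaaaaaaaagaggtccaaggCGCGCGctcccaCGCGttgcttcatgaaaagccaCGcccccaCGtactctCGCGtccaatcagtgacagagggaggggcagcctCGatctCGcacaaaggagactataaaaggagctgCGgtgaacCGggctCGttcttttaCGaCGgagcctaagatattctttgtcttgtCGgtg
Snhg8: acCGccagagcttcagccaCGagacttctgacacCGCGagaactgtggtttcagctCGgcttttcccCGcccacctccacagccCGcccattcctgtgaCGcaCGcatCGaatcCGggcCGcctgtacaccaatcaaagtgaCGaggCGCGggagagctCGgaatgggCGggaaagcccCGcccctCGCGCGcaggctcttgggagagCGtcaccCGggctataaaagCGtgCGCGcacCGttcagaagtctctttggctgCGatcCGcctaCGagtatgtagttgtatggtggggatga
Dancr: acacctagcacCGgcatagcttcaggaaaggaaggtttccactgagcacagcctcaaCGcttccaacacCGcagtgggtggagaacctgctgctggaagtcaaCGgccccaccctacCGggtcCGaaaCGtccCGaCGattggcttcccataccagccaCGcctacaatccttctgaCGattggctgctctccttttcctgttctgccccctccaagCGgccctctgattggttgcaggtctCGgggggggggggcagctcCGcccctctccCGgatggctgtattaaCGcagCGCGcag
Gm35097: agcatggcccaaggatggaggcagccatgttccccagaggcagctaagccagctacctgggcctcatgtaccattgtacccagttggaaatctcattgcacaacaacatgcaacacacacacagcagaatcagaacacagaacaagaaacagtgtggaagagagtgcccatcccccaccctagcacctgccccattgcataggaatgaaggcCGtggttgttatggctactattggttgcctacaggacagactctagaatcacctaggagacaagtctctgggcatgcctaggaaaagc
Gm7538: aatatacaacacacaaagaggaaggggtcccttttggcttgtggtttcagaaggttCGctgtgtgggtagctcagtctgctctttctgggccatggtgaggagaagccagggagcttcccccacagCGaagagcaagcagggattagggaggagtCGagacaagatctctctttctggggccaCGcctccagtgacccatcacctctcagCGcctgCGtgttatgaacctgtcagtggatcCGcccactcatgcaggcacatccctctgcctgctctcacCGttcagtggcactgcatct
The hosts held 36 (Snhg5), 30 (Snhg8) and 18 (Dancr) CpGs, at an observed over expected ratio of 1.26, 1.04 and 0.649. Gm35097 held 1 and Gm7538 held 8, at ratios of 0.0502 and 0.340. All 3 host windows held CCAAT and GGGCGG on either strand, and those of Snhg5 and Snhg8 also held TATAAA. The window of Gm35097 held CCAAT too and that of Gm7538 held GGGCGG, and neither held TATAAA.

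A RefSeq window matched 711 of the 2775 members (25.62%), so a check of base composition over all members is void, and what follows describes those 711. Their median window had 55.3% GC and 10 CpGs, against 61.7% and 21 in 5824 protein-coding promoters and 52.7% and 7 over all 32851 RefSeq windows. Windows with at least 50% GC and a CpG ratio of at least 0.6 were counted as CpG-rich. These were 24.6% of own-label members and 64.8% of those with another gene's label, beside 69.3% of protein-coding and 33.5% of all windows. Members under another gene's label thus lay close to protein-coding promoters in this measure, and own-label members below all windows. Motifs were searched on both strands, and none of those given contains another. The GC box GGGCGG stood in 33.0% of own-label members, 61.9% of the others, 67.1% of protein-coding and 35.7% of all windows. CCAAT stood in 36.9% of the 711 and 37.4% of all windows, and TATAAA in 8.58% and 13.6%. A match describes letters in the window and not a bound site.

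Levels of lncRNA promoters lay below those of protein-coding promoters. The median level was 8.47 CPM for members and 16.2 CPM for protein-coding promoters, or 7.13 and 11.4 CPM per kb of interval. Members ranged from 0.352 to 128 CPM. Level followed the label: the median was 5.69 CPM for own-label members, 9.99 CPM under a protein-coding label with a distant start and 22.7 CPM under one with a start within 1000 bp. Per kb, the highest member was Gm20512 (chr7:19715002-19716264) at 69.5 CPM per kb, under the label of Tomm40, a subunit of the mitochondrial import channel. Gm15287, antisense at chr13:111724957-111726125 and own-label, followed at 68.2 CPM per kb. Taco1os at chr11:106083812-106085480 had 61.5 CPM per kb; its interval carries the label of the kinase gene Map3k3, and the Taco1os start lies 18340 bp away. Of the 10 highest members per kb, Gm15287 and Gm45822 (48.8 CPM per kb) were own-label. The Gm45822 interval also had a RefSeq protein-coding start, that of Tom1, within 1000 bp.

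As a share of all peak counts, lncRNA promoters took up 3.80% ± 0.0596 (SD, n = 6) in the wild type control, 3.92% ± 0.162 (n = 5) in the wild type Firre line, 4.03% ± 0.172 (n = 6) in the knockout control and 3.999% ± 0.127 (n = 6) in the knockout Firre line. The wild type control spanned 3.74 to 3.88% over its 6 times and the knockout control 3.85 to 4.26%. The knockout control at 60 min was the 1 library of its line inside the range of the wild type control. The knockout Firre line had 3.75% at 0 min and 4.001% to 4.12% later, and the wild type Firre line reached its highest value, 4.18%, at 150 min. No test is given for these sums over members. The share of counts in promoters of every kind moved with them: it was 32.1% to 33.7% in the wild type control and 35.0% to 37.0% in the knockout control.

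Set against protein-coding promoters, lncRNA promoters were slightly lower in the knockout control. The ratio of lncRNA to protein-coding promoter counts was 0.190 ± 0.00154 (SD, n = 6) in the wild type control, 0.187 ± 0.00322 (n = 5) in the wild type Firre line, 0.186 ± 0.00189 (n = 6) in the knockout control and 0.186 ± 0.00159 (n = 6) in the knockout Firre line. For own-label members alone the ratio was 0.0749 to 0.0790 in the wild type control and 0.0700 to 0.0746 in the knockout control, with no overlap. Under another gene's label it was 0.113 to 0.1136 and 0.1134 to 0.114, with overlap.

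**Figure D1:**
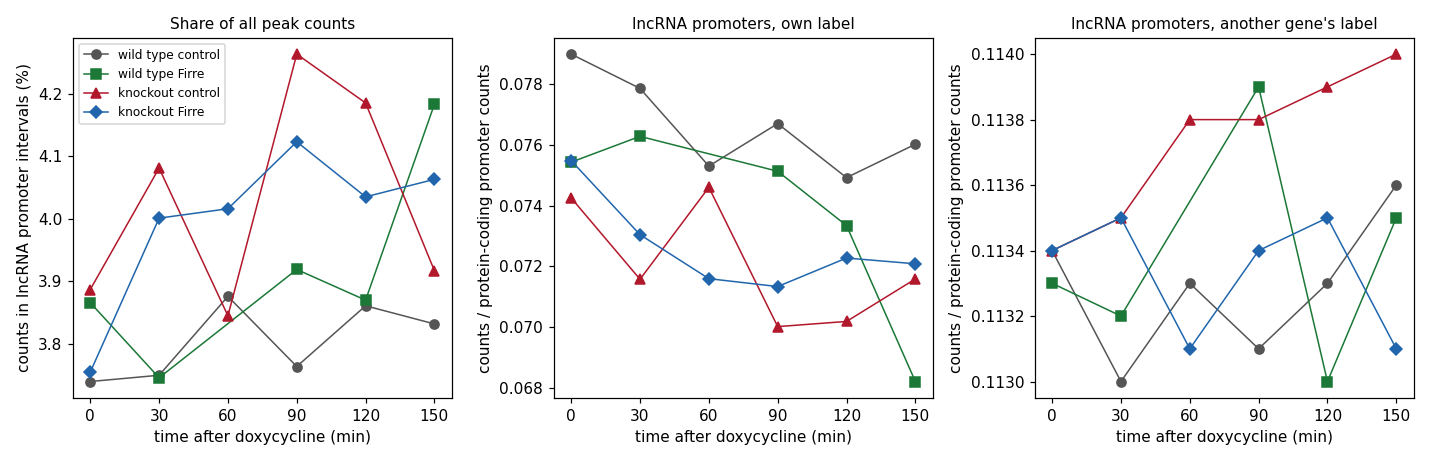
Counts in lncRNA promoters against time after doxycycline (min), 1 point per library, for 4 lines: percent of all peak counts (left) and ratio to protein-coding promoter counts for own-label members (middle) and members with another gene's label (right). In the middle panel the 6 wild type control libraries lie above the 6 knockout control libraries; the y axes do not start at 0.

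Many lncRNA promoters differed between the control lines of the 2 backgrounds, mostly upward in the knockout. By edgeR's quasi-likelihood test, adjusted over all 129515 tested peaks, 391 of 2662 tested members were higher at an adjusted p of at most 0.05 (14.7%, against 5.5% of all tested peaks) and 49 were lower (1.84%, against 2.47%). The low-count filter left out the other 113 members. The median log2 difference over members was 0.06, beside 0.12 over protein-coding promoters and -0.02 over all peaks; scaled by total counts it was -0.03 over members and -0.12 over all peaks. Of the protein-coding promoters, 2230 of 10658 were higher and 105 lower. The counts rest on scaling and on single libraries: 231 members were higher and 134 lower when scaled by total counts, 94 and 79 with offsets fitted along the level, and 82 and 6 with the knockout control at 30 and 90 min left out. With each library's promoter share as a covariate edgeR called 0 members, 213 having an unadjusted p under 0.05. Over all peaks that fit called 23 higher and 23 lower, against 7128 and 3196 without the covariate. The promoter share was 32.1% to 33.7% in the wild type control and 35.0% to 37.0% in the knockout control, with no overlap. Covariate and line therefore cannot be told apart in this fit, and the members' own counts are part of the covariate.

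Calls divided by label and by level. Of 1482 tested own-label members 124 were higher and 30 lower (median log2 difference 0.02), and of 1180 under another gene's label 267 were higher and 19 lower (median 0.12). Members were divided into 5 equal classes by mean level. In the highest class (25.5 to 128 CPM) the share called higher was 43.5% of own-label members, 51.8% of the others and 51.7% of protein-coding promoters in the same range. In the next class (12.1 to 25.5 CPM) these shares were 16.0%, 17.1% and 14.3%. In the lowest class (0.352 to 2.53 CPM) they were 0.639%, 0% and 0.103%, and 3.62% of its members were lower. Between classes the median log2 difference went from -0.16 in the lowest to 0.25 in the highest. Small counts limit what can be called in the weak intervals. The split by label also rests on scaling. Scaled by total counts, 60 own-label members were higher and 86 lower (median -0.07), and of the others 171 and 48 (median 0.03). With offsets fitted along the level these were 37 and 41 (median -0.003) and 57 and 38 (median 0.01).

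**Figure D2:**
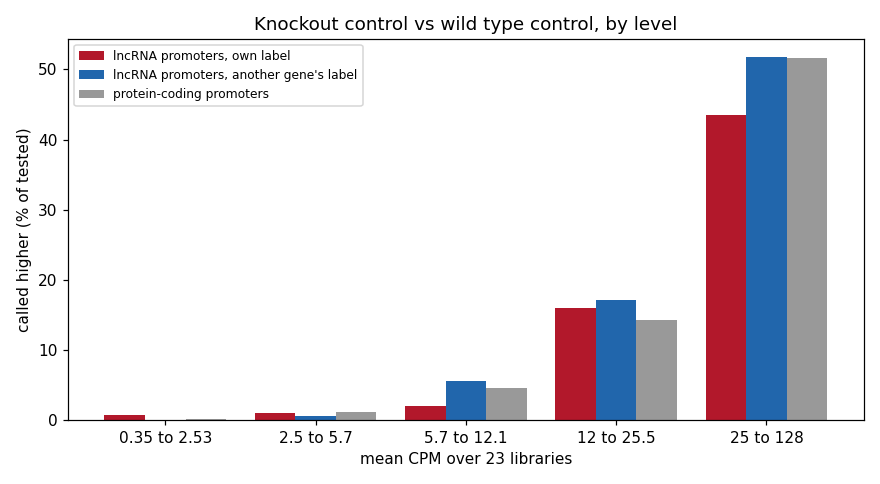
Percent of tested promoters called higher in the knockout control against the wild type control (y), by 5 classes of mean CPM (x), for own-label lncRNA promoters, lncRNA promoters under another gene's label and protein-coding promoters. The bars climb in all 3 groups, to 43.5%, 51.8% and 51.7% in the highest class.

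Among members with a RefSeq window, 86 of 270 CpG-rich ones were higher (31.9%) and 0 lower, at a median level of 25.4 CPM. Of 433 others 38 were higher (8.78%) and 10 lower, at a median of 7.01 CPM. CpG content and level therefore went together. For protein-coding promoters the shares called higher were 32.6% and 15.4%.

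Chromosome 11 had the highest share of raised members. There 70 of 160 tested members were higher (43.8%) and 0 lower, with a median log2 difference of 0.25. On the other autosomes 321 of 2502 were higher (12.8%, median 0.05), and the next chromosome, 12, stood at 18.4%. Protein-coding promoters were higher in 48.9% of cases on chromosome 11 and 18.3% elsewhere. The median on chromosome 11 stayed above that of the other autosomes with the promoter share as a covariate (0.16 against -0.02), where no member was called, with offsets along the level (0.14 against -0.01) and with the knockout control at 30 and 90 min left out (0.22 against 0.04).

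**Figure D3:**
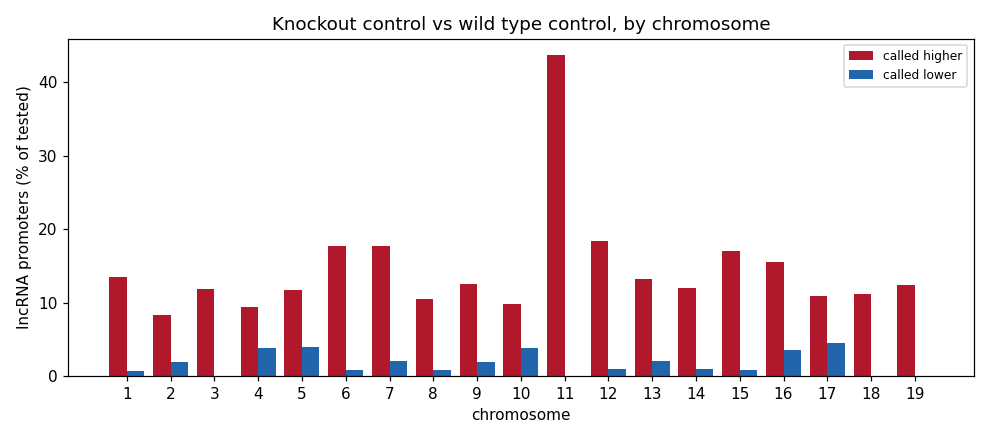
Percent of tested lncRNA promoters called higher or lower in the knockout control against the wild type control (y) on each autosome (x). Chromosome 11 reaches 43.8% higher, and chromosome 12 is next at 18.4%.

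Of 6 tested snoRNA host promoters, 3 were higher in the knockout control and 0 lower, with a median log2 difference of 0.21. Snhg5, an own-label member whose sequence is shown above, had a lowest, median and highest level of 22.2, 24.1 and 27.5 CPM in the wild type control and 29.2, 33.1 and 37.7 CPM in the knockout control. The lines did not overlap (log2 difference 0.44 ± 0.09 (SE), edgeR adjusted p = 0.000290). Snhg8, whose interval carries the label of the snoRNA gene Snora24, had 29.3, 34.5 and 36.3 CPM and 38.4, 43.8 and 47.1 CPM, also apart (0.37 ± 0.09, edgeR adjusted p = 0.00254). Dancr had 25.6, 27.2 and 30.2 CPM and 25.7, 35.8 and 39.9 CPM, overlapping through the knockout control at 60 min (0.32 ± 0.09, edgeR adjusted p = 0.0138). The call of Dancr was lost with total count scaling, with offsets along the level and with 1 library left out (90 or 150 min of the wild type control, or 30, 90 or 120 min of the knockout control), and that of Snhg8 with offsets along the level and with the knockout control at 30 and 90 min both left out. The hosts Snhg3, Snhg6 and Snhg20 did not pass, with log2 differences of 0.03, 0.11 and 0.10.

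Of 9 tested intervals of microRNA host genes, those with symbols of the form Mir...hg, 2 were higher and 0 lower. The median log2 difference of the 9 was 0.09. Both higher ones lie on chromosome 11, where 43.8% of tested members were higher, against 14.7% of all tested members. The list as drawn up also held Mirt2, a lncRNA that is no microRNA host; with its 2 intervals the list counted 11 tested, the same number of calls and a median of 0.01. Mir142hg, host of a microRNA known from blood cells and under a microRNA gene's label, had 22.2, 23.5 and 25.1 CPM in the wild type control and 29.2, 31.8 and 38.9 CPM in the knockout control, with no overlap (0.46 ± 0.08, edgeR adjusted p = 5.69e-05). Mir22hg, under the label of its neighbour Tlcd2, had 65.9, 76.8 and 82.9 CPM and 98.1, 105 and 122 CPM, with no overlap (0.51 ± 0.08, edgeR adjusted p = 8.46e-06). The hosts Mir100hg, Mir124a-1hg, Mir155hg, Mir205hg, Mir670hg and Mir9-3hg did not pass. With offsets fitted along the level the call of Mir22hg was lost.

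The counts of the next lists stand beside 14.7% higher and 1.84% lower over all tested members. Of 14 tested intervals of lncRNAs linked to ES cells, 0 were called, with a median log2 difference of 0.19. Platr22, a transcript tied to pluripotency, had 34.4, 37.4 and 42.5 CPM in the wild type control and 35.7, 42.5 and 57.5 CPM in the knockout control, with overlap (0.24 ± 0.09, edgeR adjusted p = 0.0730). Lncenc1, known from naive ES cells, had 12.1, 13.1 and 16.0 CPM and 12.4, 15.7 and 18.6 CPM (0.20 ± 0.10, edgeR adjusted p = 0.228). In the list of p53 and DNA damage lncRNAs 1 of 5 tested intervals was called (median 0.05), that of Trp53cor1 (lincRNA-p21), a p53 target beside the cell cycle inhibitor gene Cdkn1a. Trp53cor1 had 19.3, 22.4 and 26.5 CPM and 21.2, 32.2 and 35.9 CPM, with overlap (0.42 ± 0.09, edgeR adjusted p = 0.000495). Beside developmental regulators 1 of 15 tested was called (median 0.03), Lhx1os, under the label of Lhx1, at 0.30 ± 0.09. Among nuclear and abundant lncRNAs 1 of 3 was called (median 0.02), Rmrp, the RNA of RNase MRP, at 0.26 ± 0.08. The Rmrp interval carries a protein-coding gene's label, and the RefSeq start of the protein-coding gene Ccdc107 lies within 1000 bp of it. The calls of Lhx1os and Rmrp were lost with total count scaling and in 10 of 35 and 13 of 35 alternatives in all, and those of Trp53cor1, Lhx1os and Rmrp with the knockout control at 30 and 90 min left out. Both intervals of the imprinted Igf2os were tested and neither was called (median -0.03).

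The largest upward differences came at strong and at very weak promoters. Taco1os had 70.8, 77.5 and 83.6 CPM in the wild type control and 104, 119 and 154 CPM in the knockout control (0.67 ± 0.09, edgeR adjusted p = 2.21e-08). Gm15287 had 52.6, 61.8 and 65.0 CPM and 82.4, 87.5 and 118 CPM (0.63 ± 0.09, edgeR adjusted p = 2.17e-07). Gm12059 on chromosome 11 had 17.2, 23.5 and 25.1 CPM and 30.4, 35.2 and 39.3 CPM (0.62 ± 0.09, edgeR adjusted p = 2.26e-07). None of these 3 overlapped between the lines. Under the label of Zbtb20, 4932412D23Rik differed by 0.58 ± 0.09 at a mean level of 91.5 CPM. Gt(ROSA)26Sor, the Rosa26 locus widely used to place transgenes, carries the label of Setd5 and overlapped slightly, with 72.7, 81.2 and 89.5 CPM and 89.2, 118 and 133 CPM (0.47 ± 0.09, edgeR adjusted p = 0.000107); with offsets along the level this call was lost. Among weak promoters, Gm32885 had 1.71, 2.50 and 3.40 CPM and 3.66, 5.15 and 6.33 CPM, without overlap (0.99 ± 0.17, edgeR adjusted p = 2.43e-05). Gm49695 and 1700040E09Rik, at mean levels of 1.98 and 4.44 CPM, differed by 0.85 ± 0.23 and 0.58 ± 0.15. Their calls were lost in 5 of 33 and 3 of 35 alternatives. The interval of 1700040E09Rik carries the label of Nrxn3, and the 1700040E09Rik start lies 90520 bp away. Gm43470 had 0.287, 0.752 and 1.11 CPM and 0.928, 1.58 and 2.18 CPM (1.01 ± 0.32, edgeR adjusted p = 0.0312), on 2 to 9 and 7 to 22 counts per library. It overlapped between the lines, and its call was lost in 10 of 33 alternatives, among them total count scaling and leaving out 1 library (0, 120 or 150 min of the wild type control, or 120 or 150 min of the knockout control).

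Lower members were mostly weak: of the 49, 16 lay in the lowest and 20 in the second level class, and 0 in the highest. From the lowest to the highest class the median log2 difference went from -0.16 to 0.25 over members. Over protein-coding promoters it went from -0.18 to 0.26. With offsets fitted along the level 79 members were lower. DESeq2 called 6 members lower; its independent filtering gave 596 members no adjusted p, and with that filtering off it called 6 lower as well. Gm47465, a lincRNA at chr9:32005414-32005745, had 1.56, 2.04 and 2.58 CPM in the wild type control and 0.398, 0.906 and 1.35 CPM in the knockout control (-1.17 ± 0.28, edgeR adjusted p = 0.00256). Gm14233 had 1.38, 1.88 and 2.69 CPM and 0.530, 0.945 and 1.30 CPM (-1.11 ± 0.28, edgeR adjusted p = 0.00539). Gm829, a lincRNA in the authors' annotation but protein-coding in RefSeq, had 1.70, 2.35 and 2.87 CPM and 0.795, 1.16 and 1.58 CPM (-0.99 ± 0.25, edgeR adjusted p = 0.00596). None of the 3 overlapped, on 3 to 10, 4 to 9 and 6 to 16 counts per library of the knockout control. DESeq2 gave none of the 3 an adjusted p; with its filtering off all 3 were called, and of the alternatives that gave an adjusted p the promoter share covariate alone lost each call. Among members named for a neighbouring gene, Rsf1os1 was lower by -0.61 ± 0.18 and Ppp2r2cos by -0.61 ± 0.20 on the log2 scale. The call of Rsf1os1 was lost in 9 of 34 alternatives and that of Ppp2r2cos in 14 of 34, both with offsets along the level, with DESeq2 without its filtering and with the knockout control at 30 and 90 min left out. With 1 library left out, the call of Rsf1os1 was lost without 30 or 90 min of the wild type control, or 90 or 120 min of the knockout control. That of Ppp2r2cos was lost without 0, 30, 60, 120 or 150 min of the wild type control, or 0, 30, 90 or 120 min of the knockout control.

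**Figure D4:**
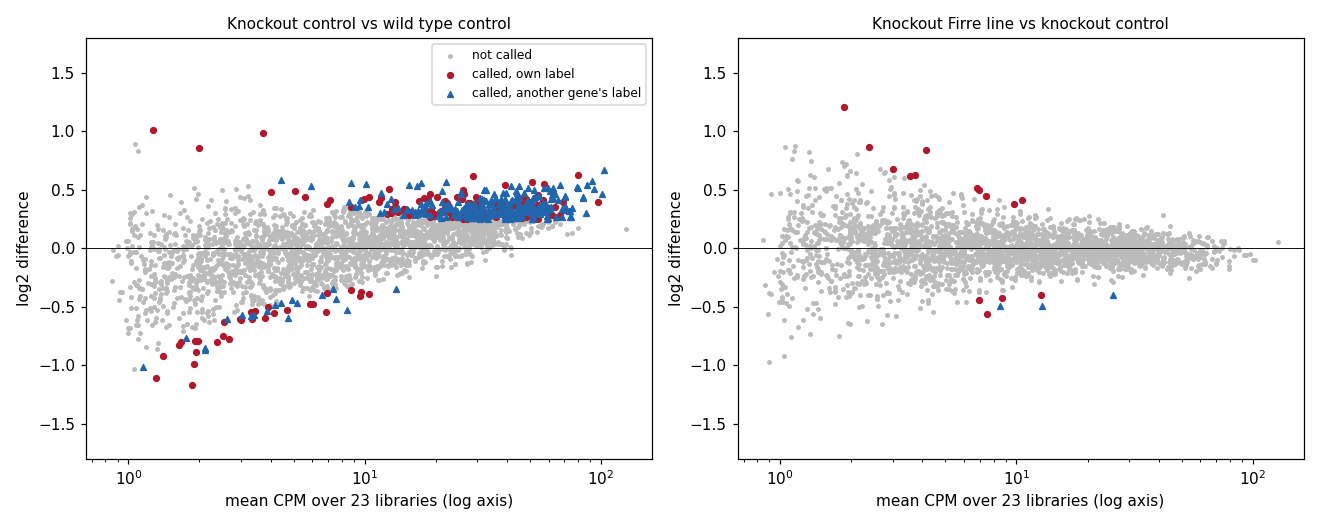
Log2 difference (y) against mean CPM (x, log axis) of 2662 tested lncRNA promoters, for the knockout control against the wild type control (left) and the knockout Firre line against the knockout control (right), with called points colored by label. On the left 391 points are called above 0 and 49 below; on the right 11 and 7.

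With the transgene in the knockout background few lncRNA promoters differed from the knockout control. Calls were 11 higher (0.413%, against 0.569% of all tested peaks) and 7 lower (0.263%, against 0.344%), near the background in both directions. All 11 higher members and 4 of the 7 lower ones were own-label, as were 1482 of the 2662 tested members. Of the own-label members 0.742% were higher and 0.270% lower, also near the shares of all tested peaks. The log2 difference had a median of -0.01 and lay between -0.28 and 0.32 from the 5th to the 95th percentile. The comparison shares the knockout control with the one above, so values of both are set side by side and do not support each other.

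Gm35097, a lincRNA at chr17:45146253-45147472 with 1 CpG in its window, had 2.15, 2.74 and 4.06 CPM in the knockout control and 3.74, 5.28 and 7.33 CPM in the knockout Firre line (lowest, median and highest). It was higher in the Firre line at each of the 6 times, and the ranges overlapped through the Firre line at 90 min. At 0 min it already had 7.33 CPM against 2.70 CPM. The log2 difference was 0.84 ± 0.16, edgeR adjusted p = 0.001000, and that of the knockout control against the wild type control was -0.55 ± 0.17, edgeR adjusted p = 0.0253, a call lost in 10 of 35 alternatives. Gm47465 had 1.81, 2.10 and 2.49 CPM in the knockout Firre line, apart from the knockout control (1.21 ± 0.27, edgeR adjusted p = 0.00899). Gm47851 had 3.93, 5.69 and 5.94 CPM and 6.85, 7.90 and 8.58 CPM, also apart (0.52 ± 0.13, edgeR adjusted p = 0.0207). Gm50022 had 1.11, 1.46 and 2.08 CPM and 2.06, 2.77 and 4.16 CPM, overlapping slightly (0.87 ± 0.22, edgeR adjusted p = 0.0246). Gm7538, whose sequence is shown above, passed narrowly at 0.63 ± 0.17, edgeR adjusted p = 0.0377. The calls of Gm47465, Gm47851, Gm50022 and Gm7538 were lost in 3 of 33, 8 of 35, 10 of 33 and 14 of 35 alternatives, for all 4 with DESeq2 without its filtering and for the last 3 with the knockout control at 30 and 90 min left out. With 1 library left out, the call of Gm47465 was lost without 60 min of the knockout control. The call of Gm47851 was lost without 30 or 90 min of the knockout control, or 30, 120 or 150 min of the knockout Firre line. For Gm50022 these were 30, 90 or 120 min of the knockout control, or 30, 60, 120 or 150 min of the knockout Firre line, and for Gm7538 0, 30, 60 or 150 min of the knockout control, or 30, 60, 90, 120 or 150 min of the knockout Firre line. The other 6 higher members were Gm26811, Gm5091, 1700071M16Rik, Gm47423, 1700095B10Rik and 9230009I02Rik.

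On the lower side, Mypopos, antisense beside the transcription factor gene Mypop, had 7.22, 10.2 and 10.6 CPM in the knockout control and 5.61, 6.48 and 6.97 CPM in the knockout Firre line, with no overlap (-0.56 ± 0.12, edgeR adjusted p = 0.00276). Gm13012, under the label of Ece1 with its own start 21700 bp away, had 13.1, 16.3 and 18.6 CPM and 9.78, 11.6 and 12.5 CPM, with no overlap (-0.50 ± 0.09, edgeR adjusted p = 0.00102). Mir142hg had 20.3, 25.2 and 26.4 CPM in the knockout Firre line against 29.2, 31.8 and 38.9 CPM, with no overlap (-0.40 ± 0.08, edgeR adjusted p = 0.00351); with the knockout control at 30 and 90 min left out its edgeR adjusted p was 0.0777. All 3 were lower in the Firre line at each of the 6 times, 0 min included. Against the wild type control, the knockout control differed by 0.32 ± 0.11 for Mypopos, 0.42 ± 0.09 for Gm13012 and 0.46 ± 0.08 for Mir142hg. The calls of Gm35097 and Gm13012 held in all 35 alternatives, and that of Mypopos in all but DESeq2 without its filtering (DESeq2 adjusted p = 0.0674).

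**Figure D5:**
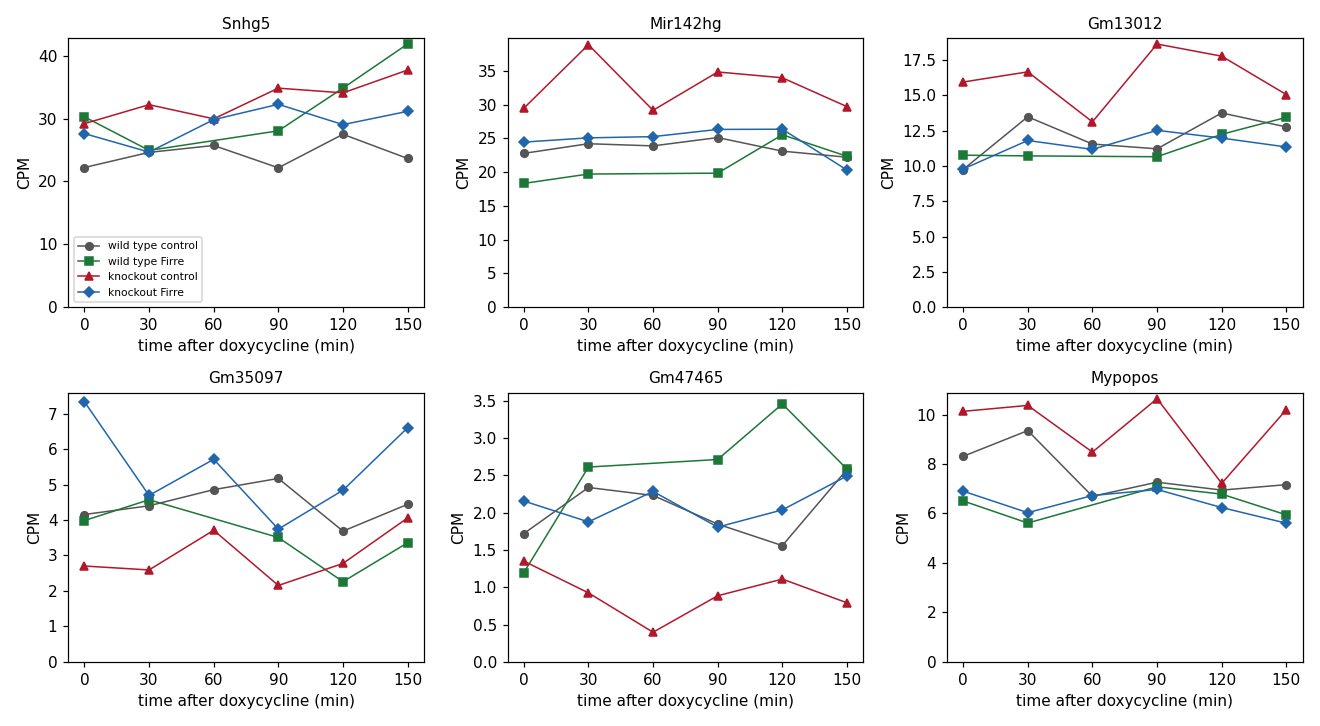
CPM (y, from 0) of 6 lncRNA promoters against time after doxycycline (x, min) in 4 lines, 1 point per library. The knockout control lies above the knockout Firre line at each time for Mir142hg, Gm13012 and Mypopos and below it for Gm35097 and Gm47465, from 0 min on.

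With the transgene in the wild type background, edgeR called 0 members higher (against 0.061% of all tested peaks) and 1 lower (0.0376%, against 0.0208%); 298 members had an unadjusted p under 0.05. The lower one was Gm17224, antisense at chr1:172212022-172213493. It had 8.51, 10.8 and 12.6 CPM in the wild type control and 6.64, 6.92, 8.67, 8.65 and 6.85 CPM at 0, 30, 90, 120 and 150 min of the wild type Firre line, overlapping slightly (-0.51 ± 0.11, edgeR adjusted p = 0.0259). The call was lost in 14 of 35 alternatives, DESeq2 and limma-voom among them, which called 0 members in either direction. Next by p, and not called, came Snhg5 (0.38 ± 0.09, edgeR adjusted p = 0.0801), with 30.3, 24.9, 28.1, 34.9 and 41.9 CPM at those times, and Gm15287 (0.38 ± 0.10, edgeR adjusted p = 0.112). Both were highest at 150 min.

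The difference between backgrounds, that is the knockout Firre contrast minus the wild type Firre contrast, was called for 3 members above 0 (0.113%, against 0.128% of all tested peaks) and 4 below (0.150%, against 0.138%). Gm35097 was at 1.13 ± 0.23, edgeR adjusted p = 0.00780, with 0.84 ± 0.16 in the knockout and -0.29 ± 0.17 in the wild type background. Snhg5 was at -0.55 ± 0.12, edgeR adjusted p = 0.0224, with -0.18 ± 0.08 and 0.38 ± 0.09, neither of which passed on its own. The others were Gm47851 and Gm15886 above 0 and Gm15287, Gm42936 (the interval at chr5:36581409-36582635, under the label of Tbc1d14) and Gm49945 below. Gm49945 lies outside the naming rule and was named after its values were seen.

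Over time no lncRNA promoter was called. The mean Firre response, the change from 0 min to the later times in the Firre lines minus that in the controls, was called by edgeR for 0 members and for 0% of all tested peaks. A joint test of the 5 later times called 0 members, against 0.000772% of all tested peaks, and the mean change of the control lines after doxycycline called 0, against 0%. An unadjusted p under 0.05 was found for 85, 109 and 150 members in these 3 tests. DESeq2 and limma-voom also called 0, with 11, 9 and 51 and with 79, 90 and 181 members at that level. The median SE of the mean Firre response was 0.22 on the log2 scale, and members lay between -0.47 and 0.45 from the 5th to the 95th percentile, so changes of that size were not detectable here. Gm44970 had the smallest p of the mean response (-0.73 ± 0.23, edgeR adjusted p = 1.0), Gm36235 that of the joint test (edgeR adjusted p = 0.9998) and Gm16159 that of the control course (-0.81 ± 0.23, edgeR adjusted p = 0.901).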

How the data were processed

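Raw counts of each library in each consensus peak were deposited, not normalized by the authors, per the file headers. The build mm10, MACS2 2.2.7.1 and featureCounts are named in the submitters' processing notes. The deposited annotation gives peak positions and a signed distance to the nearest start, used here as a score in bp. Not given in the sources used here are the aligner, duplicate handling, transposase shift and annotation. ATAC-seq counts carry no strand, so overlapping promoters cannot be told apart.

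Peaks passing filterByExpr (minimum count 10) were fitted with edgeR 4.0.16 (TMM, glmQLFit, robust) as line plus time (14 residual degrees of freedom) and as line, time and transgene by time (9). Benjamini-Hochberg adjustment ran over 129515 peaks, SE is the log2 difference over the root of F, and CPM are on TMM library sizes. DESeq2 1.42.0, limma 3.58.1 (voom), other scalings and filters, a promoter share covariate and left-out libraries were alternatives. The covariate was planned; results by promoter label and DESeq2 without independent filtering were alternatives chosen after seeing the data. A missing DESeq2 adjusted p was not counted as a lost call. The numbers of a line's replicates stand for its times, so the time term is a replicate block. On simulated counts the knockout control comparison (127419 peaks) recovered 56.7% of peaks changed by 1.5-fold and 94% of those changed by 2-fold, and the mean Firre response (127411 peaks) 14.9% and 55.2%. Changed peaks were drawn only from those with a mean count of at least 20, and no shift along the level was simulated. A filter at that mean count kept 2229 members, against 2662 tested, so these shares do not cover the weaker members.

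Members named were, per line comparison and direction, the 8 called with the largest change and the 6 with the smallest p outside Gm and Rik symbols; the 3 with the smallest p where a test called fewer than 3; the 10 highest per kb; up to 4 called, or else 2, per list; and up to 6 of the difference between backgrounds. The members and lists were chosen with earlier results of these data known. Hosts and other list members that did not pass, and higher calls beyond the 8, are named to complete a count.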

Additional observations from a re-analysis of the deposited data

Results flagged for a closer look

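Single libraries lay far from the rest of their line in 5 of 100 groups of 5 or 6 libraries examined, by the gap to the nearest library over the range of the line. Chance alone marks about 1 group in 20. The share of counts in lncRNA promoters was 3.755% in the knockout Firre line at 0 min, the nearest other library of that line being at 4.001%. Dancr had 40.5 CPM at 150 min in the wild type Firre line (nearest 30.4 CPM), the library with the highest promoter share. Mir142hg had 20.3 CPM in the knockout Firre line at 150 min (nearest 24.4 CPM). Mir22hg had 89.9 CPM in the knockout Firre line at 0 min (nearest 105 CPM). Gm43470 had 1.12 CPM in the knockout Firre line at 150 min (nearest 1.65 CPM).

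The transgenic contrast differed between the knockout and the wild type background for 7 members by edgeR's test of the difference, given here as knockout minus wild type on the log2 scale. Above 0 were Gm35097 (1.13, adjusted p = 0.00780), Gm47851 (0.801, adjusted p = 0.0209) and Gm15886 (0.555, adjusted p = 0.0467). Below 0 were Gm15287 (-0.554, adjusted p = 0.0265), Snhg5 (-0.553, adjusted p = 0.0224), Gm49945 (-0.538, adjusted p = 0.0490) and Gm42936 (-0.511, adjusted p = 0.0425). Alternatives in which the call was lost numbered 4 of 34 for Gm35097, 8 of 34 for Gm47851, 10 of 35 for Snhg5, 18 of 35 for Gm15287, 24 of 35 for Gm42936 and 27 of 35 for Gm15886. Lost calls were not counted for Gm49945, which lies outside the naming rule and whose adjusted p was closest to 0.05.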

How the results depend on the processing

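Calls of the knockout control against the wild type control numbered 440, and 173 with loess offsets, 0 with the promoter share as a covariate, 88 with the 30 and 90 min libraries of the knockout control left out, 154 among own-label members and 204 among members with no RefSeq coding start within 1000 bp. Of the calls 88.9% were higher, 63.3% with total count scaling, 54.3% with loess offsets and 98.3% with DESeq2 (292 calls in all without its independent filtering). Leaving out 1 library gave 215 to 688 calls, the lowest without the knockout control at 90 min and the highest without it at 150 min; 248 remained in number without the wild type control at 90 min, 276 without the knockout control at 30 min and 268 without it at 120 min. The 18 calls of the knockout Firre line against its control became 38 with loess offsets, 4 with DESeq2 (3 without its filtering), 7 with the 30 and 90 min libraries of the knockout control left out and 10 without the 0 min or without the 60 min libraries, and 6 to 34 with 1 library left out (lowest without the Firre line at 30 min, highest without the control at 150 min). The 1 call of the wild type Firre line became 3 with total count scaling or with the 30 and 90 min libraries of the knockout control left out, 2 with loess offsets or a stricter filter, 0 with DESeq2 (either way), limma-voom or without the 60 min libraries, and 0 to 12 with 1 library left out, highest without the wild type Firre line at 90 min. The 7 calls of the difference between backgrounds became 15 with total count scaling, 13 with loess offsets, 4 with no filter, 12 with a stricter filter, 2 with the 30 and 90 min libraries of the knockout control left out, 0 with DESeq2 without its filtering, 1 with DESeq2, the covariate or without the 0 min libraries, and 0 to 57 with 1 library left out (lowest without the wild type control at 90 min, highest without the knockout control at 150 min). The 3 tests over time, which were not fitted without the 0 or the 60 min libraries, called 0 members in each of the other alternatives. With the covariate, Gm48671 and Ppp2r2cos turned from lower to a log2 difference of 0.01639 and 0.01733 in the knockout control. The interval of Gm48671 carries the label of Scml4, and the Gm48671 start lies 46130 bp away. The covariate did not overlap between the control lines, so its fits cannot tell it apart from the line. The causes were not tested.

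The share of counts was higher by 0.2259 percentage points in the knockout control than the wild type control, the same paired within time (0.2259), 0.1547 with the 30 and 90 min libraries of the knockout control left out, 0.2418 without the 0 min libraries, 0.02701 for own-label members and -0.3442 as a percent of promoter counts (0.1792 to 0.2628 with 1 library left out). As a percent of promoter counts the sign also turned for the knockout Firre line (0.02338 from -0.03093) and the wild type Firre line (-0.258 from 0.113), each against its control. The ratio to protein-coding promoters differed by -0.004159 in the knockout control, paired within time by -0.004159, by -0.003496 without its 30 and 90 min libraries and by -0.004042 without 0 min (-0.004684 to -0.003661 with 1 library left out). For the knockout Firre line, share and ratio were 0.04029 and -0.0004734 with the 30 and 90 min libraries of the knockout control left out, the ratio -1.58e-05 without 0 min, and -0.06779 to 0.01792 and -0.0003977 to 0.0007143 with 1 library left out; for the wild type Firre line, 0.04633 to 0.1556 and -0.003463 to -0.001535. Setting aside the 10 members with the most counts, or chromosome 11, turned no sign of these differences. In the fits the replicate numbers of a line stand for its times; without this replicate block (no time term) the 4 line comparisons gave 424, 17, 1 and 5 calls.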
